A study of Mus musculus with 4 samples.

Results

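The immunity-related GTPases (IRGs) are a family of interferon-inducible GTP-binding proteins of the mouse. The members described here are the rows of the deposited expression table whose gene name is exactly Irgm1, Irgm2, Igtp, Iigp1, Tgtp1, Tgtp2 or Ifi47, and all 7 names were found among 34745 rows. All 7 passed the filter on low counts, among 11841 genes tested. RNA came from 2 libraries of mouse macrophages that had been given MB-3 at 50 µM before stimulation, and from 2 libraries of macrophages that had been given its solvent DMSO. Every library, controls included, came from wildtype C57BL/6 mice, from adherent peritoneal macrophages collected 3 days after an injection of 2 ml of 3% thioglycolate medium, and every library had been stimulated with lipopolysaccharide (LPS, a bacterial cell wall component) at 100 ng/ml for 4 hours. The compound MB-3 is known as a GCN5 inhibitor; GCN5 (gene Kat2a) acetylates lysines of histones and other proteins. Bone marrow-derived macrophages are named in the title of the series, whereas each sample is labelled as peritoneal, and the per-sample source is used. The age of the mice and cells without LPS were not analysed here, so each value below is a level after LPS and not an induction by it.

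IRG proteins are known for attacking the vacuoles in which intracellular parasites and bacteria live, such as those of Toxoplasma gondii, in cells exposed to interferon-gamma. They fall into 2 classes, named after residues in their nucleotide-binding motif. The GMS class (Irgm1, Irgm2 and Igtp, also called Irgm3) sits on the cell's own membranes and holds the other class in its inactive state there. The GKS class (Iigp1, also called Irga6; Tgtp1 and Tgtp2, copies of Irgb6; and Ifi47, also called Irgd) loads onto the vacuole and takes part in its disruption. In mouse macrophages LPS raises IRG transcripts through autocrine interferon-beta.

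The libraries held 18538799 and 17864065 counts with MB-3 and 21320618 and 15598531 counts with DMSO. The 8 macrophage markers (9 rows, since Itgam is on 2) summed to 31079 and 30946 CPM (counts scaled to a common library size, with TMM factors) with MB-3 and to 24450 and 25022 CPM with DMSO, a sum carried mostly by Lyz2. Of these 9 rows, 4 were higher and 3 lower with MB-3. Few markers of other cell types were abundant enough to be tested: 2 of B cells, 1 of eosinophils and 3 of mesothelium and fibroblasts. These were not called, and no marker of T cells, NK cells, neutrophils or mast cells could be tested. Of the other marker lists, the most abundant was mesothelium and fibroblast, at 56.9 and 109 CPM with MB-3 and 42.3 and 86.8 CPM with DMSO, and Ncr1, Prf1, Ly6g, Elane, Epx and Prg2 had 0 counts in every library. Resident peritoneal macrophage markers summed to 3.07 and 6.25 CPM with MB-3 and to 5.87 and 7.52 CPM with DMSO. The part of cell composition in the results was not tested, and in bulk RNA fewer cells of a type and less RNA per cell cannot be told apart. Whether the replicates are separate cultures or animals is not stated, so the spread behind each p-value may be purely technical.

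Of the 7 members, 6 lie on chromosome 11; coordinates are as deposited, and the processing notes name mm10 and GRCm38.p4. Irgm1 (ENSMUSG00000046879, chr11:48861968-48871683), Tgtp1 (ENSMUSG00000078922, chr11:48985327-48994172), Tgtp2 (ENSMUSG00000078921, chr11:49057194-49064206) and Ifi47 (ENSMUSG00000078920, chr11:49076587-49096974) form a cluster of 235 kb. Igtp (ENSMUSG00000078853, chr11:58199556-58207591) and Irgm2 (ENSMUSG00000069874, chr11:58199618-58222779) form a pair 9.1 Mb away. All 7 members are protein-coding in GENCODE M21.

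The promoters of the chromosome 11 members are shown because most of them carry the same paired elements just before their start, and because these genes are set side by side below. RefSeq promoter windows (GRCm38.p6, 250 bases before to 50 after a start) matched 6 of the 7 members by symbol, all but Iigp1. Both strands were searched for the interferon-stimulated response element, as GAAA, any 2 bases and GAAA again, which factors of the IRF family bind. They were also searched for TTCNNNGAA, the gamma-activated site of interferon-gamma-induced genes, and for an NF-κB site, as GGGA, any base and TTTCC. The stretches below are 60 bases each, 5′ to 3′ on the gene's strand, with matches to the first 2 motifs in capitals. They come from chr11:48871421-48871480 (minus strand) for Irgm1, chr11:58214888-58214947 (plus strand) for Irgm2, chr11:58199496-58199555 (plus strand) for Igtp, chr11:48992289-48992348 (minus strand) for Tgtp1 and chr11:49064248-49064307 (minus strand) for Tgtp2.
Irgm1: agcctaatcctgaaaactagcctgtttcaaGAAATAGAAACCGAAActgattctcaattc
Irgm2: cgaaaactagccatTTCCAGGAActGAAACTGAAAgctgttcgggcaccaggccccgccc
Igtp: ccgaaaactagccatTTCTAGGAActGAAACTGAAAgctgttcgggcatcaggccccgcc
Tgtp1: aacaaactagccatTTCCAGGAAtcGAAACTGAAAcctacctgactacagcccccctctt
Tgtp2: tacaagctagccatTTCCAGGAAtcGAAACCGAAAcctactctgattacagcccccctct

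The response element was in 5 of the 6 members' windows, against 3.43% of 32817 RefSeq windows of the same length. In Irgm1 the capitals hold 2 overlapping matches to it. The gamma-activated site was in 4 of the 6, against 8.29% of all windows, and in each of Irgm2, Igtp, Tgtp1 and Tgtp2 it stood directly upstream of the response element without overlapping it. The NF-κB letters were in 0 of the 6, against 0.411% of all windows. Among 6 windows of other IRG-related genes, 3 held the response element and 2 the gamma-activated site. Gm12185 carried the pair in the same order and Gm12250 held both motifs, whereas Gm5431, 9930111J21Rik2 and Irgq had no match. A link between matches and the changes below was not tested. Ifi47's window held none of the 3 motifs; GENCODE M21 gives this gene 5 transcripts whose starts spread over 11.7 kb, and a single window was searched. Over the 250 upstream bases Irgm2 and Igtp were 68.1% identical and Tgtp1 and Tgtp2 61.5%, while the other pairs ran from 42.5% to 51.5%, so the members do not give independent matches. A match describes letters and not a bound site.

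The comparison asked which transcripts differed between LPS-stimulated macrophages pre-treated with MB-3 and those given DMSO. IRG transcripts were lower with MB-3: 6 of the 7 fell, 0 rose, and Ifi47, whose DMSO libraries differed from each other by 8.89-fold, did not pass the test. Over all genes tested, 20.2% were called lower and 16.9% higher, at an adjusted p under 0.05 (edgeR's quasi-likelihood test, Benjamini-Hochberg over the whole table). The median log2 fold change (MB-3 over DMSO) was -1.33 over the 7 members and -0.01 over all genes tested. The falls were graded, with Iigp1 at 5.51-fold lower and Irgm1 at 1.29-fold lower as the extremes. Both MB-3 values lay below both DMSO values for these 6 members, as they did for 37% of all genes tested. Without DMSO replicate 2, the library in which Ifi47 was low, 7 of 7 were lower, against 15.8% of all genes. Without DMSO replicate 1, 5 were lower and 1, Ifi47, was higher, against 14.1% and 14.8% of all genes.

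**Figure D1:**
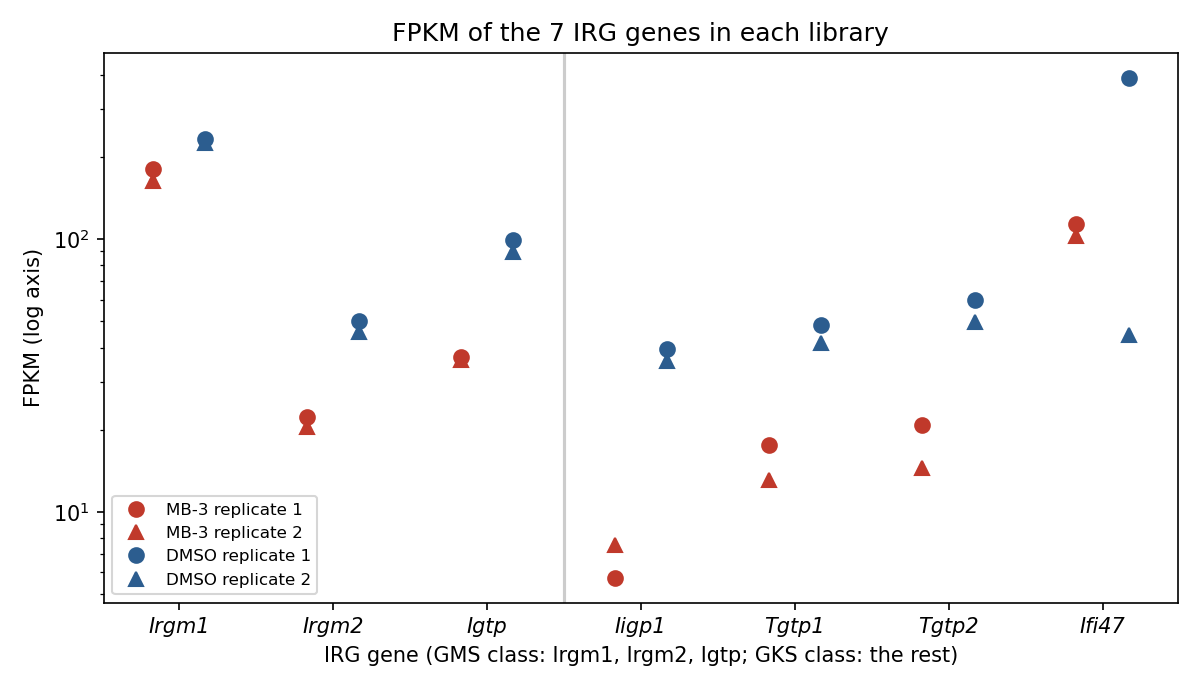
FPKM (log axis) of each IRG gene in the 4 libraries, with MB-3 libraries to the left of DMSO libraries for each gene and the replicate number given by the marker shape. Both MB-3 points lie below both DMSO points for every gene except Ifi47, whose DMSO points stand at 389 and 44.5 FPKM on either side of the MB-3 points.

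Of the regulatory GMS class, Irgm1 was the least changed. This gene, whose loss in mice impairs control of mycobacteria and disturbs autophagy, had 1362 and 1186 CPM in the MB-3 libraries and 1687 and 1599 CPM in the DMSO libraries. The MB-3 values lay below the DMSO values, and the DMSO libraries were closer to each other than the MB-3 libraries were. The log2 fold change was -0.37 (SE 0.086, edgeR adjusted p = 0.0179). The call was lost without MB-3 replicate 2 (-0.27, edgeR adjusted p = 0.0530) and without DMSO replicate 1 (-0.28, edgeR adjusted p = 0.0798), and the adjusted p ran from 0.000911 to 0.0798 over 15 alternatives.

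Irgm2, which restrains other IRGs and guanylate-binding proteins and limits caspase-11 activation by bacterial LPS, had 159 and 141 CPM with MB-3, against 346 and 310 CPM with DMSO. The gap between groups was several times the spread within either. The gene fell by 1.13 on the log2 scale (SE 0.097, edgeR adjusted p = 0.000329). Igtp (Irgm3), which resides on the endoplasmic reticulum and on lipid droplets, had 196 and 184 CPM with MB-3 and 506 and 448 CPM with DMSO. It fell by 1.33 (SE 0.088, edgeR adjusted p = 0.000119), with no overlap between groups. The deposited span of Irgm2 covers 99.2% of the span of Igtp on the same strand, because 1 annotated Irgm2 transcript starts inside Igtp, and 11.8% of the 50-base words in Igtp transcripts also occur in Irgm2 transcripts. Their separate values are therefore uncertain where reads of shared exons were counted for either gene.

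Of the effector GKS class, Iigp1 changed the most. Iigp1 (Irga6; ENSMUSG00000054072, chr18:60376029-60392627) is the IRG whose loading onto the Toxoplasma vacuole has been studied in most detail. It had 18.5 and 23.5 CPM with MB-3, against 123 and 109 CPM with DMSO. Both MB-3 libraries were low, and the groups were far apart. It fell by 2.46 on the log2 scale (SE 0.14, edgeR adjusted p = 6.23e-05).

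Tgtp1 and Tgtp2 encode near-identical forms of Irgb6, an early arrival at the parasite vacuole. Tgtp1 had 69.2 and 49.8 CPM with MB-3 and 183 and 155 CPM with DMSO (log2 fold change -1.51, SE 0.17, edgeR adjusted p = 0.00105). Tgtp2 had 68.6 and 45.7 CPM with MB-3 and 188 and 155 CPM with DMSO (log2 fold change -1.59, SE 0.20, edgeR adjusted p = 0.00169). In both genes MB-3 replicate 2 was the lowest library, and the groups did not overlap. Of the 50-base words in Tgtp1 transcripts, 79.4% also occur in Tgtp2 transcripts, so how reads were divided between them is uncertain. With the counts of both genes summed before the fit, the log2 fold change was -1.55 (edgeR adjusted p = 0.00127). The deposited span of Gm12185, an IRG-related gene described below, overlaps that of Tgtp1 on the same strand, and reads shared between them were not examined.

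Ifi47 (Irgd) stood apart from the rest. It had 8722 and 7606 counts with MB-3 (487 and 424 CPM), and 34518 and 2890 counts with DMSO (1609 and 181 CPM). The MB-3 libraries were close to each other and lay between the DMSO libraries, of which replicate 1 was high and replicate 2 low. The log2 fold change of -0.97 had an SE of 0.83 and did not pass the test (edgeR adjusted p = 0.403). Its direction depended on which DMSO library was used: without DMSO replicate 2 it was -1.81 (SE 0.097, edgeR adjusted p = 2.49e-05), and without DMSO replicate 1 it was 1.38 (SE 0.11, edgeR adjusted p = 0.000181).

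The DMSO libraries differed by 8.89-fold at Ifi47, the third-largest gap among the 7522 tested genes that averaged 10 CPM or more. The median gap over those genes was 1.08-fold and the 99th percentile 1.87-fold. Larger gaps were found only at mt-Nd4l, with 1 count in DMSO replicate 1 and 1945 in DMSO replicate 2, and at Cebpb, with 550 and 3752 counts in the same order; these genes were picked after their values were seen. The other 6 IRG genes differed by at most 1.22-fold between the DMSO libraries, and the largest gap between the MB-3 libraries was 1.5-fold, at Tgtp2. Olfr56, whose annotated span covers all of Ifi47 and whose transcripts share 2.54% of Ifi47's 50-base words, had 3 and 0 counts with MB-3 and 4 and 5 counts with DMSO. The cause of the gap was not tested.

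**Figure D2:**
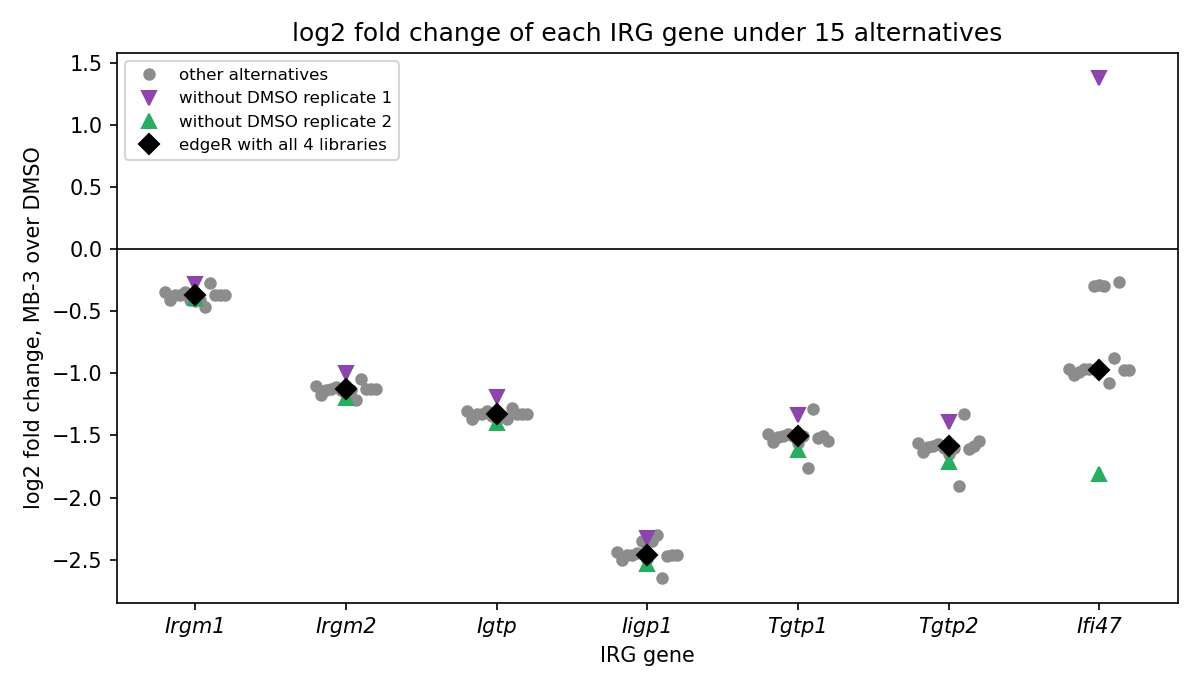
log2 fold change (MB-3 over DMSO) of each IRG gene in edgeR with all 4 libraries (diamonds) and under 15 alternatives, with the removal of either DMSO library marked. The values of 6 genes stay below 0 under all of them, whereas Ifi47 runs from -1.81 to 1.38 depending on the DMSO library left out.

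Levels were compared between genes on the deposited FPKM scale (counts scaled by gene length and by library total). With MB-3, Irgm1 was the highest at 171 ± 12.1 FPKM (SD, n = 2), ahead of Ifi47 at 108 ± 7.60 and Igtp at 36.5 ± 0.597. Irgm2 (21.3 ± 1.26), Tgtp2 (17.6 ± 4.52) and Tgtp1 (15.3 ± 3.13) followed, with values that overlapped between Irgm2 and Tgtp2 and between Tgtp2 and Tgtp1, and Iigp1 was the lowest at 6.65 ± 1.29 FPKM. With DMSO, Irgm1 stood at 228 ± 5.95 FPKM, Igtp at 94.4 ± 7.03, Tgtp2 at 54.7 ± 6.89, Irgm2 at 48.0 ± 3.13, Tgtp1 at 45.0 ± 4.73 and Iigp1 at 37.7 ± 2.71 (SD, n = 2 each). Between libraries, here too Tgtp2 overlapped Irgm2 and Irgm2 overlapped Tgtp1, while Ifi47, at 389 and 44.5 FPKM, had no single place in the order. Within each library the order of these 3 genes was the same in both replicates. Tgtp2, Irgm2 and Tgtp1 had 59.6, 50.2 and 48.4 FPKM in DMSO replicate 1 and 49.8, 45.8 and 41.7 FPKM in DMSO replicate 2. In both MB-3 libraries the order was Irgm2, Tgtp2, Tgtp1.

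These levels rest on the gene lengths behind the deposited FPKM, which differ from the exon lengths of GENCODE M21: 5121 against 2022 bases for Igtp, and 3121 against 5823 bases for Iigp1. With counts divided by GENCODE exon length the order of all 7 genes with MB-3 was the same, and with DMSO Irgm2 came before Tgtp2. On that scale Ifi47 was at 655 and 74.9 with DMSO, above Irgm1 (292 and 282) in replicate 1 and below it in replicate 2. Ranked among all rows by FPKM, Irgm1 was 262nd and 295th with MB-3 and 233rd and 246th with DMSO. Iigp1 was 4328th and 3720th with MB-3 and 1155th and 1291st with DMSO.

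The balance between the classes depended on whether Ifi47 was counted, and the GMS side was mostly Irgm1. The 3 GMS genes together had 239 and 219 FPKM with MB-3 and 382 and 359 FPKM with DMSO. Of these sums, Irgm1 alone held 180 and 163 FPKM with MB-3 and 232 and 224 FPKM with DMSO. The GKS genes other than Ifi47 had 44.1 and 35.1 FPKM with MB-3, against 148 and 127 FPKM with DMSO. The ratio of the GMS sum to this GKS sum was 5.43 and 6.25 in the MB-3 libraries and 2.59 and 2.82 in the DMSO libraries, so the groups did not overlap. With lengths from GENCODE the ratio was 7.78 and 9.49 with MB-3 and 4.46 and 4.84 with DMSO. Irgm1 was also the least changed of the called members, and the ratio without it is not given here. Irgm2 and Igtp fell less (log2 fold changes -1.13 and -1.33) than Tgtp1, Tgtp2 and Iigp1 (-1.51, -1.59 and -2.46). The gap between Igtp and Tgtp1 was not large beside their SEs of 0.088 and 0.17. By log2 fold change, Irgm2 and Igtp lay closer to Tgtp1 and Tgtp2 than to Irgm1, while Iigp1 fell further. With Ifi47 in the GKS sum, and so over all 7 members, the groups overlapped, at 1.52 and 1.60 with MB-3 and 0.712 and 2.09 with DMSO. The difference of the mean log2 ratio (MB-3 minus DMSO) was then 0.35, and it was -0.42 without DMSO replicate 1. Leaving Ifi47 out was chosen after its values were seen. No test was made of these ratios, since an exact two-sided permutation test of 2 against 2 cannot go below p = 0.333.

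**Figure D3:**
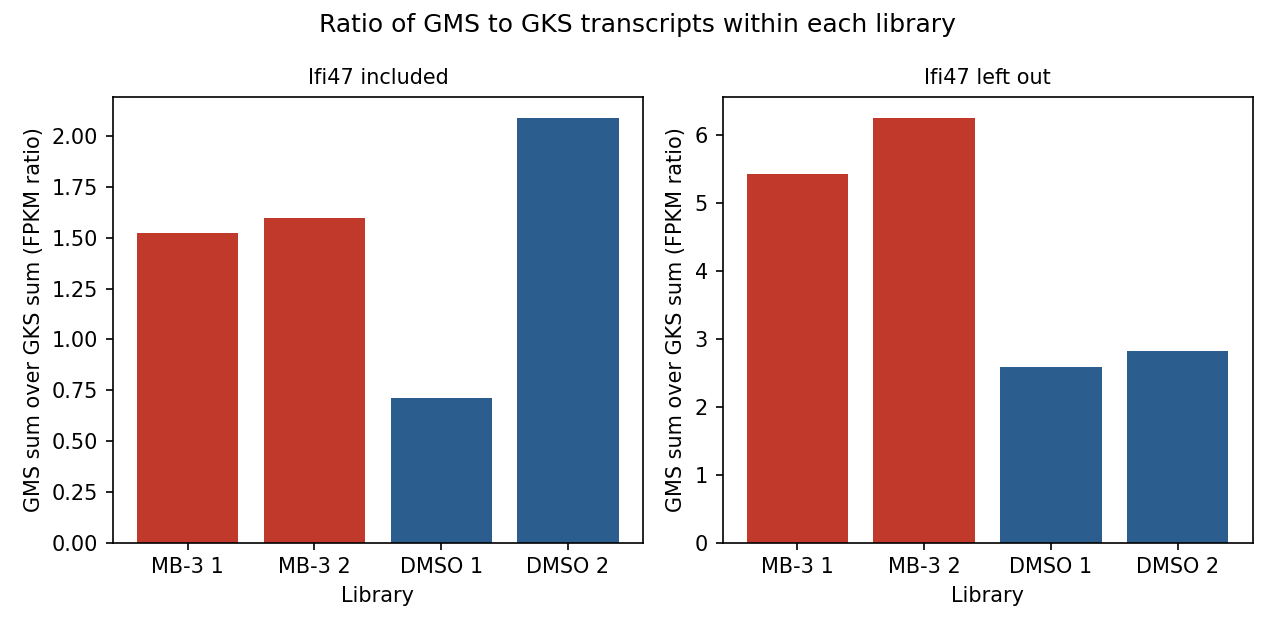
Ratio of summed FPKM of GMS genes (Irgm1, Irgm2, Igtp) to GKS genes in each library, with MB-3 libraries left of DMSO libraries, and with Ifi47 counted (left panel) or left out (right panel) of the GKS sum. Without Ifi47 the MB-3 libraries stand at 5.43 and 6.25 and the DMSO libraries at 2.59 and 2.82, whereas with Ifi47 the DMSO libraries lie on either side of the MB-3 libraries.

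Ratios of single pairs restate the fold changes above within each library, and Irgm1 and Iigp1 were the least and the most changed of the called members. The ratio of Irgm1 to Iigp1 in FPKM was 31.4 and 21.5 with MB-3 and 5.87 and 6.26 with DMSO, and that of Irgm1 to Igtp was 4.87 and 4.51 with MB-3 and 2.34 and 2.5 with DMSO. Of the pairs that share transcript sequence, Igtp to Irgm2 was 1.67 and 1.77 with MB-3 and 1.98 and 1.95 with DMSO, and Tgtp2 to Tgtp1 was 1.19 and 1.1 with MB-3 and 1.23 and 1.20 with DMSO. Ifi47 to Tgtp1, of the same cluster, was 6.45 and 7.80 with MB-3 and 8.05 and 1.07 with DMSO, so its groups overlapped. Irgm1 made up 63.6% and 64.0% of the members' FPKM other than Ifi47 with MB-3, against 43.9% and 46.0% with DMSO.

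Of 16 further IRG-related names, some of them synonyms, 10 had a row in the table and 7 were tested. While 20.2% of all genes tested were lower and 16.9% higher, 5 of these 7 fell, 0 rose and 2 did not pass. The median log2 fold change was -0.01 over all genes tested and -2.11 over these 7. Gm5431, which lies between Irgm1 and Tgtp1, changed the most: it had 258 and 282 counts with MB-3 and 4075 and 2688 counts with DMSO (log2 fold change -3.57, SE 0.11). Gm4951, near Iigp1 on chromosome 18, fell by 2.68 (SE 0.25), with 124 and 74 counts with MB-3 against 842 and 505 counts with DMSO. The others that fell were 9930111J21Rik2 (-2.67, SE 0.57), 9930111J21Rik1 (-2.11, SE 0.34) and Gm12185 (-1.55, SE 0.23), with edgeR adjusted p-values of 0.0127, 0.00454 and 0.00319 in that order. Each of these 3 had at most 181 counts in a library. The span of Gm12185 covers that of 9930111J21Rik1 and overlaps that of Tgtp1, so their values are uncertain.

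Irgq, a divergent relative on chromosome 7 that is not known as an interferon effector, had 166 and 184 counts with MB-3 and 191 and 132 counts with DMSO (log2 fold change 0.18, SE 0.16, edgeR adjusted p = 0.409). Gm4841 had a log2 fold change of -0.85 (SE 0.37, edgeR adjusted p = 0.123). Irgc1 had 0 and 0 counts with MB-3 and 5 and 1 with DMSO, and like Gm12187 and F830016B08Rik it was too low to be tested. Gm12250 (Irgb10), a GKS gene, had no row under either name, so its level is not given.

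**Figure D4:**
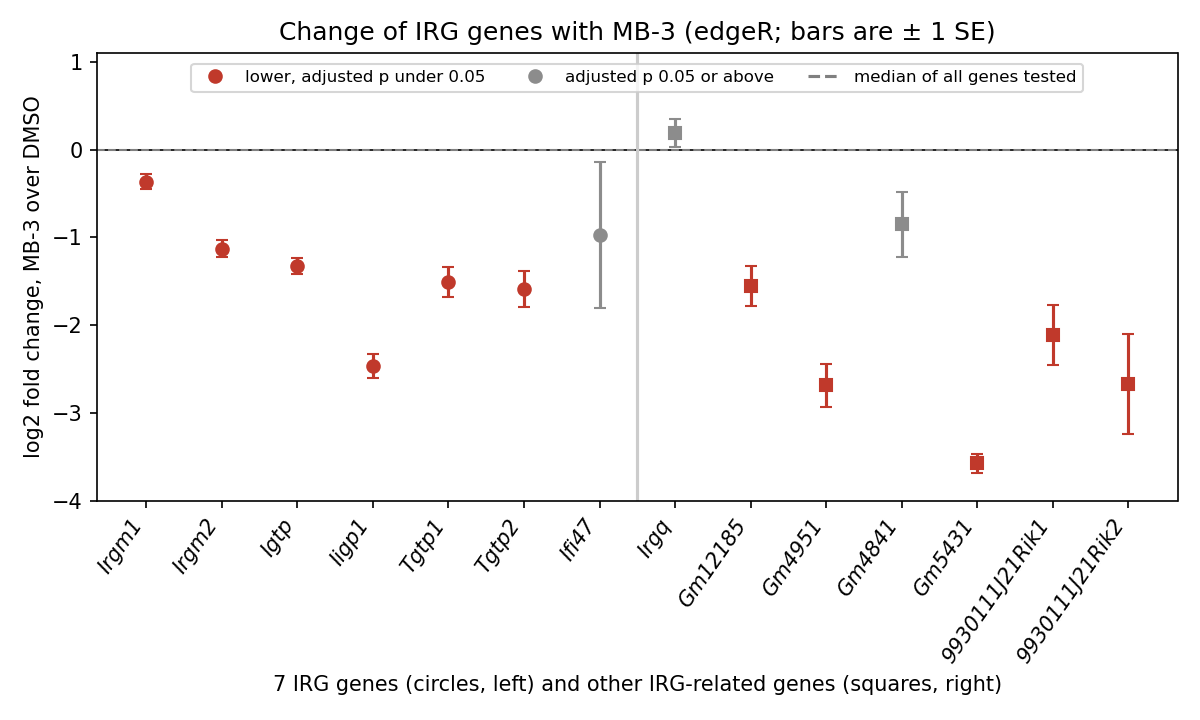
log2 fold change (MB-3 over DMSO) with 1 SE for the 7 IRG genes (circles) and 7 IRG-related genes (squares), with genes called lower in red and others in grey. The fitted values run from -3.57 at Gm5431 to 0.18 at Irgq, and the dashed line at -0.01 is the median of all genes tested.

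Genes next to the IRG loci did not all move with them. Within 100 kb of a member, 21 rows belonged to no IRG gene, 12 of these were tested, and 2 were lower and 4 higher. Their median log2 fold change was -0.09, and over all genes tested 20.2% were lower and 16.9% higher. With limma on log2(FPKM + 1) 3 were lower and 3 higher, while 2574 of 11841 genes were lower and 1722 higher. With a replicate block 4 were lower and 4 higher, while 2706 of 11841 genes were lower and 2340 higher. The main fit called 2392 genes lower and 1999 higher, so the split among these few neighbours varied with the setting, as did the calls over all genes. On the side of Irgm1 away from the cluster, Trim41 (0.52, SE 0.13) and Gm12184 (1.01, SE 0.15) were higher. Trim7 was also higher (1.96, SE 0.58, edgeR adjusted p = 0.0413), with at most 19 counts in a library. The spans of Gm12184 and Trim7 overlap on opposite strands. Inside the cluster, Psme2b, a retrocopy of the proteasome activator gene Psme2, fell by 1.27 (SE 0.070), with 6100 and 6190 counts with MB-3 and 17223 and 13617 counts with DMSO, and is uncertain where reads of its parent gene were counted for it. Around Iigp1, BC023105 was lower (-1.76, SE 0.55, edgeR adjusted p = 0.0478), with 7 and 11 counts with MB-3 and 26 and 36 with DMSO. Smim3, also near Iigp1, was higher (1.1, SE 0.11). The adjusted p-values of BC023105 and Trim7 were near the threshold. Without MB-3 replicate 1 the neighbours called were 1 lower and 2 higher, against 14.9% and 10.5% of all genes. Without DMSO replicate 2 they were also 1 lower and 2 higher, against 15.8% and 14% of all genes.

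**Figure D5:**
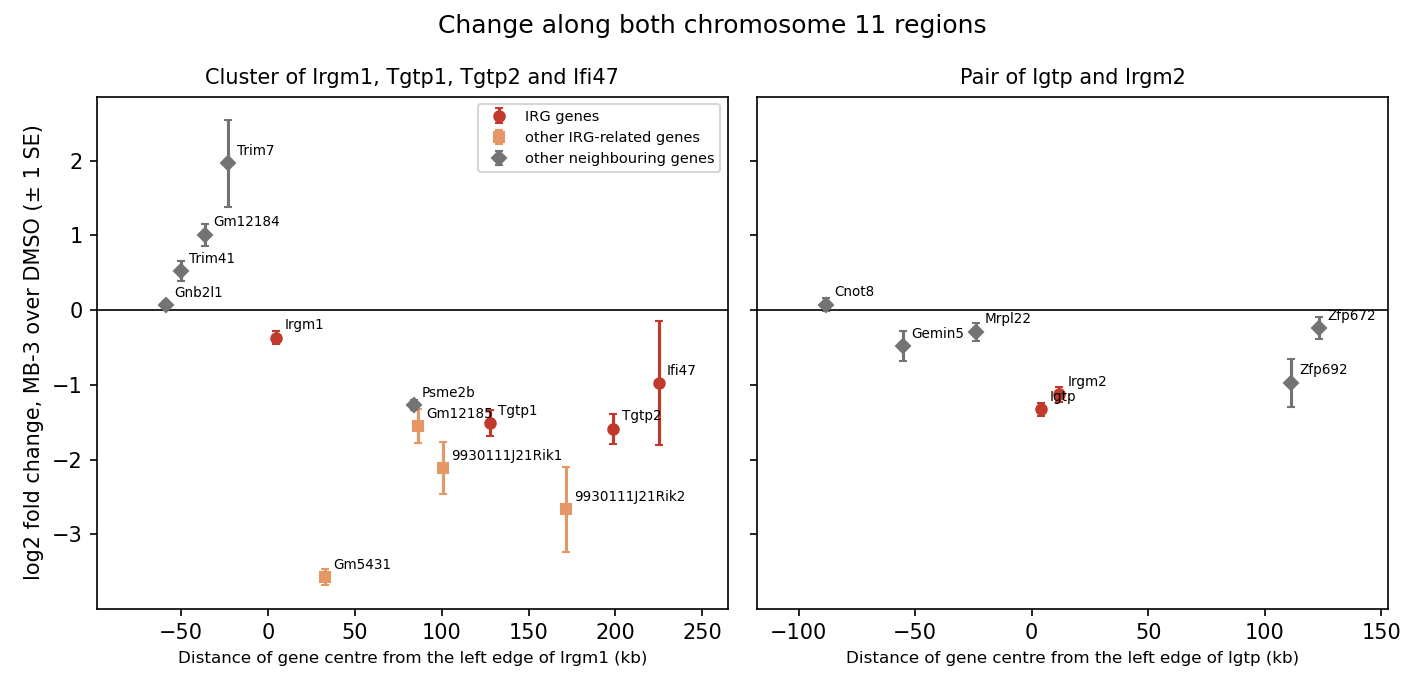
log2 fold change (MB-3 over DMSO, with 1 SE) of each tested gene near the chromosome 11 IRG genes, against the distance of its centre in kb from the left edge of Irgm1 (left panel) or of Igtp (right panel). Trim41, Gm12184 and Trim7 lie above 0 beside Irgm1 at -0.37, while the IRG and IRG-related genes lie below 0.

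Genes that pass interferon signals to IRG promoters, listed together with brakes on such signals, were lower in part. Of 19 listed, 17 were tested, of which 10 fell, 0 rose and 7 did not pass. Over all genes tested, 20.2% fell and 16.9% rose. These 17 had a median log2 fold change of -1.13, against -0.01 for all genes tested. The 3 smallest p-values were those of Irf7, which amplifies interferon production (-3.47, SE 0.076), Usp18, a brake on the type I receptor that is itself interferon-induced (-3.47, SE 0.082), and Jak2, a kinase of the interferon-gamma receptor (-1.81, SE 0.089). The most abundant that did not pass were Irf1 (-0.37, SE 0.14), a factor that binds such response elements, the receptor kinase gene Jak1 (0.00, SE 0.11) and Irf9 (-0.13, SE 0.086), a DNA-binding factor of the type I interferon response.

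The following were picked after their values were seen. Stat2, a transcription factor of the type I interferon response, had 112 and 114 CPM with MB-3 and 258 and 237 CPM with DMSO. It fell by 1.13 (SE 0.080, edgeR adjusted p = 0.000151), and the groups did not overlap. Ifnb1, the gene of interferon-beta, had 6 and 1 counts with MB-3 and 12 and 12 with DMSO (log2 fold change -1.70, SE 0.82, edgeR adjusted p = 0.155), too few for a firm value. Ifng had 0 counts in both MB-3 libraries and 8 and 7 with DMSO.

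The guanylate-binding proteins are a second family of interferon-inducible GTPases that acts on the same vacuoles. All 12 of their rows (11 genes, Gbp6 being on 2 rows) fell, against 20.2% of all genes tested. The median log2 fold change was -0.01 over all genes tested and -2.20 over these rows, the same with Gbp2b at its bound. The most abundant, Gbp2, fell by 1.57 (SE 0.11), and falls were fitted for Gbp5 (-2.07, SE 0.12), Gbp3 (-1.87, SE 0.10) and Gbp7 (-2.02, SE 0.084). Larger falls were fitted for Gbp4 (-3.66, SE 0.18) and Gbp9 (-3.01, SE 0.23). The rest were 2 rows of Gbp6 (-2.13, SE 0.17, and -2.37, SE 0.23) and the scarce Gbp8 (-2.27, SE 0.67), Gbp10 (-2.05, SE 0.64) and Gbp11 (-3.17, SE 0.95), whose edgeR adjusted p-values of 0.0395, 0.0478 and 0.0428 in that order were near the threshold. Of the 12 rows, 11 were called with RLE size factors, 10 with DESeq2 and 9 without MB-3 replicate 1, and 8 of 11 tested without DMSO replicate 2. Gbp2b had 0 counts with MB-3 and 13 and 18 with DMSO, at least 10.4-fold lower with 3 counts over the group as the floor. Reads shared among these similar genes make each separate value uncertain.

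The partners of IRGs at vacuoles did not, as a list, follow the family. While 20.2% of all genes tested were lower and 16.9% higher, 1 of these 14 genes fell, 7 rose and 6 did not pass. The list holds genes of ATG8 conjugation and of ubiquitin tagging or recognition, and its median log2 fold change was 0.25. Trim21, a ubiquitin ligase brought to the vacuole and itself interferon-induced, was the one that fell (-2.01, SE 0.088). The 3 smallest p-values among those that rose were of the receptor gene Sqstm1 (2.61, SE 0.085), the ATG8 gene Gabarapl1 (1.47, SE 0.068) and the conjugation gene Atg12 (0.69, SE 0.079). The most abundant that did not pass were Atg3 (0.14, SE 0.094), Gabarapl2 (0.12, SE 0.077) and Map1lc3b (-0.19, SE 0.13). The count of those that rose was 4 without MB-3 replicate 1 and 4 without MB-3 replicate 2, while the share of all genes called higher was 10.5% and 11.8% in these fits, against 16.9% with all libraries.

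Outside all lists, the genes whose 4 centred log2 CPM values were nearest to the members' median profile were Cited2, Cdyl2, Ptprj, Il17ra and Cpd, at Euclidean distances of 0.135 to 0.149. Igtp was at 0.166 from that profile, Irgm2 at 0.260, Tgtp1 at 0.295, Tgtp2 at 0.400, Irgm1 at 0.982, Iigp1 at 1.18 and Ifi47 at 2.29. Ptprj, a receptor tyrosine phosphatase gene, had 130 and 111 CPM with MB-3 and 316 and 275 CPM with DMSO. With 4 libraries in 2 groups such a distance reads little more than the size of the fold change.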

How the data were processed

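The authors deposited 1 table with, per gene, a whole-number count and an FPKM value for each of 4 libraries, per the file headers. Libraries were made with a stranded kit, per the labels' protocols. Per the submitters' processing notes, HISAT2, StringTie 1.3.0 and edgeR were used with mm10 and GRCm38.p4. The counting of multi-mapping reads, its strand setting and the annotation release are not stated. Columns were matched to samples by group and replicate number. Neither replicate pair was a repeated deposit (chi-square per degree of freedom 11.1 for MB-3, 13.0 for DMSO).

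The deposited counts went into edgeR 4.0.16 (R 4.3.3; glmQLFit on group, filterByExpr, TMM), with Benjamini-Hochberg adjustment over 11841 genes and a threshold of 0.05. SE is |log2 fold change| over the root of F. One count was worth 0.0466 to 0.0627 CPM, and bounds cover counting error only. Alternatives were other scalings and filters, DESeq2 1.42.0, limma 3.58.1 on log2 FPKM, each library left out, and a replicate block.

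The members and lists were chosen with earlier results of these data known. Named were all members, tested IRG-related and guanylate-binding protein genes, called neighbours, and from each other list the 3 smallest p-values in each direction and the 3 most abundant genes not called. Likeness used log2(CPM + 0.5). Promoters are from RefSeq and annotation from GENCODE M21. A result that needs a withheld item is not reported here.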

Additional observations from a re-analysis of the deposited data

How the results depend on the processing

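Over 15 alternatives for each gene, Irgm2, Igtp, Iigp1, Tgtp1 and Tgtp2 kept their direction and their call, with the highest adjusted p at 0.0115 (Tgtp2). Irgm1 kept its direction and lost its call under 2 alternatives. The log2 fold change of Ifi47 was 1.38 without DMSO replicate 1 and -1.81 without DMSO replicate 2, and the cause was not tested. The difference of the mean log2 ratio of GMS to GKS FPKM, MB-3 minus DMSO, was 0.35 with all libraries, ran from -0.42 to 1.13 with 1 library left out (-0.42 without DMSO replicate 1), and was 1.11 with Ifi47 left out, an alternative chosen after seeing the data. With 1 library left out, the members called ran from 5 to 7, the vacuole partners called from 5 to 7 (8 with all libraries) and the neighbours called from 3 to 4 (6 with all libraries). Neighbours called numbered 3 of 15 with limma on unfiltered log2(FPKM + 1), where 3537 of 16708 genes were called. In the main fit they numbered 6 of 12, where 4391 of 11841 genes were called. With a replicate block the members called were 6, and 5046 genes were called over the table against 4391 without it. Same-numbered libraries had deviations that correlated at 0.213, and with 2 pairs the numbers were not taken to pair the samples. A robust edgeR fit, also chosen after seeing the data, called 6 members. A lone library in a group is assumed to vary like the other group. With 2 libraries a group, a single library can set a value, as at Ifi47.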
